A study of Mus musculus with 18 samples.

Results

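Macrophages grown with plasma of mice lacking apolipoprotein E and stabilin-2 were compared with macrophages grown with plasma of mice lacking apolipoprotein E and stabilin-1. The arrays were chosen by their titles alone, 6 for the first plasma (AS2) and 3 for the second (AS1), which are 9 of the 18 arrays of the series. All cells were bone marrow-derived macrophages, differentiated from mouse femoral marrow for 4 days in serum-containing medium with 30 ng/ml of the growth factor M-CSF. That medium was then exchanged for one with 10% donor plasma, and total RNA was taken 48 hours later, on day 6. The labels name M-CSF for the first 4 days and do not mention it for the plasma medium. Donors of AS1 plasma were ApoE-Stab1-KO mice and donors of AS2 plasma were ApoE-Stab2-KO mice, both C57BL/6J and both fed a Western diet for 8 weeks, so the loss of apolipoprotein E and the diet were shared by both groups. The other 9 arrays carried plasma of diet-fed wild-type C57BL/6J mice (WT, 4 arrays) or of ApoE-KO mice (ApoE, 5 arrays) and serve below to place a value. The knockouts belong to the plasma donors and not to the macrophages, so the macrophages' own Apoe, Stab1 and Stab2 levels do not check the labels. Whether plasma was pooled, and whether replicates were separate cultures or donors, is not given in the labels, and the p-values below cover no more than the variation seen among these arrays, part of which may be technical.

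Stabilin-1 and stabilin-2 are large scavenger receptors best known from the sinusoidal endothelium of liver and spleen, where they take up circulating ligands such as modified lipoproteins, matrix fragments and, for stabilin-2, hyaluronan. Stabilin-1 is also made by some tissue macrophages. Apolipoprotein E carries plasma lipids to their receptors, and mice that lack it become hyperlipidaemic on a Western diet.

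Values are log2 expression values, 1 row per gene, so a difference of 1 is a 2-fold difference. The table's values ran from 3.34 to 14.05 with a median of 4.37. A row at the low end does not show that a gene is silent, since the row of Gapdh, an abundant glycolytic enzyme, averaged 3.80 with AS1 and 3.81 with AS2 plasma. The median SD between arrays was 0.083 within AS1 and 0.089 within AS2. Across genes, which are not independent replicates, arrays of the same group correlated at r = 0.9945 to 0.9976, and an AS1 with an AS2 array at 0.9786 to 0.986. The macrophage markers Cd68, Cd14 and Itgam averaged 12.65, 10.08 and 11.79 with AS1 plasma and 12.64, 10.15 and 11.83 with AS2 plasma. Of 8 measured macrophage markers, these 3 did not pass the test used below, and the other 5 were lower with AS2 plasma.

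Of 24705 rows with a gene symbol, 5467 (22.1%) passed limma's test at an adjusted p under 0.05, 2847 (11.5%) higher and 2620 (10.6%) lower with AS2 plasma. The arrays of the 2 groups did not overlap in 5893 rows (23.9%), and the median difference over all rows was -0.0019. Called differences of at least 2-fold were found for 250 higher (1.01%) and 272 lower (1.1%) rows, and of at least 4-fold for 37 and 60. Counts of list members below are set against the 22.1%. That share takes in many low rows with few calls, such as olfactory receptor genes (1.96%). With the lowest 40% of rows by mean left out, 5620 were called, so the share among the remaining rows was higher. A list share moderately above 22.1% therefore need not stand out among well-detected genes.

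**Figure D1:**
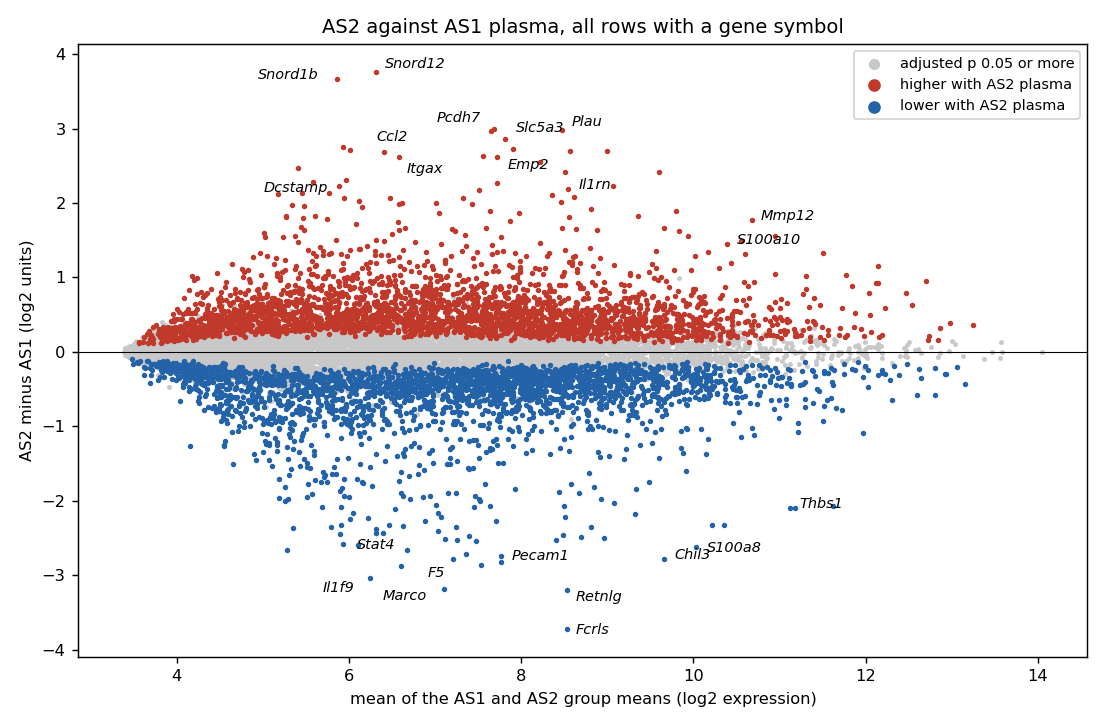
Difference between AS2 and AS1 plasma (vertical axis, log2 units) against the mean level (horizontal axis, log2 expression) for 24705 rows, each point 1 row. Red points are the 2847 rows called higher and blue points the 2620 rows called lower with AS2 plasma, grey points had an adjusted p of 0.05 or more, and Fcrls lies at -3.72 and Plau at 2.98.

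The largest rises with AS2 plasma, passing over small RNA genes (described last), predicted genes, clone names and pseudogenes, included genes of proteolysis at the cell surface, adhesion and cell recruitment. Plau encodes urokinase, the protease that activates plasminogen. It read 6.63, 7.42 and 6.92 on the AS1 arrays and 9.68 to 10.24 (median 9.96) on the 6 AS2 arrays. Every AS2 array lay above all 12 arrays of the other plasmas, and the difference was 2.98 ± 0.16 (SE) log2 units, or 7.89-fold (limma adjusted p = 1.16e-09). Pcdh7, a protocadherin of cell-cell adhesion, stood at 5.63, 6.68 and 6.26 with AS1 plasma against 9.05 to 9.34 (median 9.15). Its groups were as far apart, a 7.96-fold difference (limma adjusted p = 1.16e-09). Ccl2, the chemokine that draws monocytes through the receptor Ccr2, read 5.22, 5.08 and 4.90 against 7.32 to 8.20 (median 7.76). This was a 6.42-fold rise without overlap (limma adjusted p = 1.75e-08), and the means with WT and ApoE plasma were 5.09 and 5.93. Ccr2 itself was higher by 0.43 (limma adjusted p = 0.0237). That call was lost without AS1 replicate 2 or 3 (adjusted p = 0.11 and 0.129).

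Several others of the 15 largest rises so chosen encode surface or secreted proteins. Flrt2, a membrane protein of cell adhesion, and Emp2, a tetraspan membrane protein, rose by 2.76 and 2.62 log2 units. Qpct, which forms pyroglutamate at protein ends, rose by 2.71, Cpe, a carboxypeptidase of prohormone processing, by 2.29, and Jag1, a Notch ligand, by 2.14. Slc5a3, the myo-inositol transporter, rose by 2.86, but its gene overlaps that of Mrps6, named here after its value was seen, which was 1.91 higher. The files do not show how the probes divide these overlapping genes, so either value is uncertain. Car5b, a mitochondrial carbonic anhydrase, Olfr111, an olfactory receptor gene, and Nkain1 rose by 2.31, 2.14 and 2.06. For all 15 the AS2 arrays lay above every array of the other 3 plasmas.

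**Figure D2:**
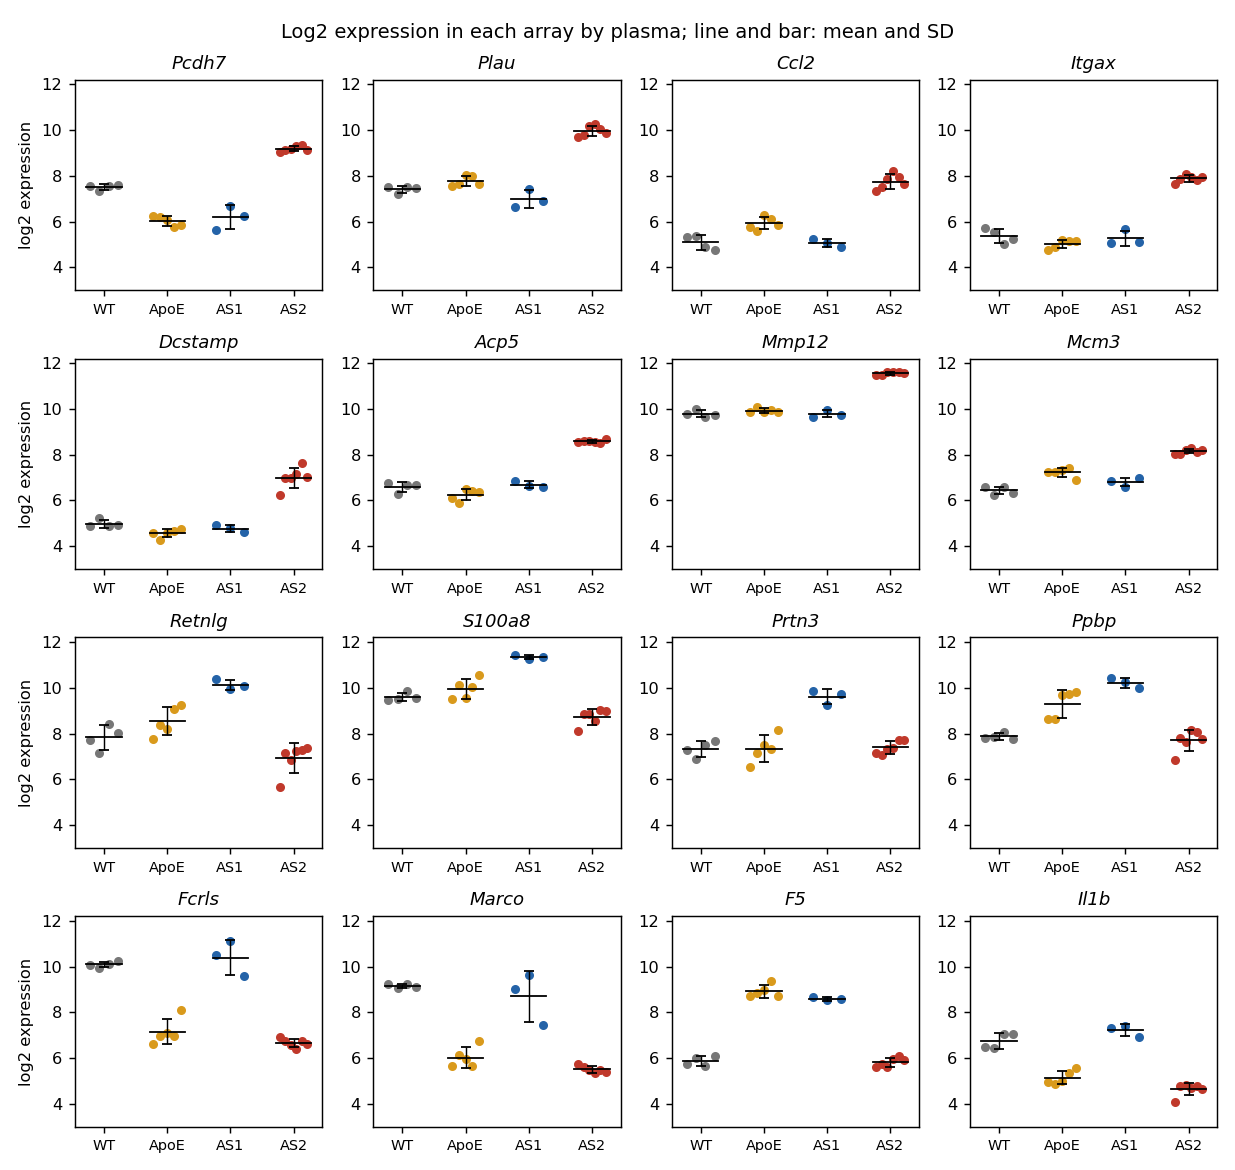
Log2 expression of 16 genes (vertical axes) on each of the 18 arrays, grouped by plasma (horizontal axes), each point 1 array, with the mean and SD of each group. Genes higher with AS2 plasma come first, with all AS2 points above the others (Plau from 9.68 to 10.24), and among the genes lower with AS2 plasma, AS1 replicate 3 stands below its group for Marco (9.04, 9.62 and 7.44 in AS1 replicates 1, 2 and 3).

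Genes of osteoclasts, the multinucleate bone-resorbing relatives of macrophages, split into rises and falls. Of 21 measured genes of osteoclasts and macrophage fusion, 8 rose, 6 fell and 7 did not pass the test, with a list median of 0.11. Dcstamp, a membrane protein needed for cell fusion, read 4.93, 4.78 and 4.61 with AS1 plasma and 6.24 to 7.62 (median 7.002) with AS2 plasma. The AS2 arrays varied more among themselves (SD 0.44) than the median row did, yet all exceeded the other 12 arrays, a 4.67-fold rise (limma adjusted p = 2.32e-07). Acp5, tartrate-resistant acid phosphatase, stood at 6.85, 6.65 and 6.58 against 8.51 to 8.68 (median 8.58). It was 3.7-fold higher, again above every other array (limma adjusted p = 5.29e-09). Ctsk, the collagen-degrading cathepsin K, rose by 1.78, Atp6v0d2, a proton pump subunit with a part in fusion, by 1.56, and Tnfrsf11a, the receptor RANK for the osteoclast cytokine RANKL, by 1.26. Cd9, a tetraspanin, and Mitf, a transcription factor of osteoclasts, rose by 1.20 and 0.58.

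In the other direction, Itgb3, the beta chain of the osteoclast vitronectin receptor and also of a platelet integrin, read 8.69, 8.75 and 8.45 with AS1 plasma and 5.68 to 6.44 (median 6.20) with AS2 plasma. Its AS1 arrays exceeded those of all other plasmas. Mmp9, a gelatinase, had a difference of -2.53, Nfatc1, the main osteoclast transcription factor, of -0.52, and the tetraspanin Cd81 of -0.74. Siglec15 was lower (-0.47, limma adjusted p = 0.039), a call lost in 8 of 19 alternatives. The genes of the calcitonin receptor Calcr and of the fusion protein Ocstamp differed by 0.03 and 0.19 (limma adjusted p = 0.717 and 0.397).

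Matrix proteases and matrix proteins also moved in both directions, 6 of 21 higher and 9 lower with a median of -0.03. Mmp12, macrophage elastase, read 9.66, 9.97 and 9.74 against 11.47 to 11.63 (median 11.59). This was a 3.41-fold rise with no overlap (limma adjusted p = 1.69e-10). The collagenase Mmp13, Mmp19, the sheddase Adam8 and the secreted adhesion protein Tgfbi rose by 1.54, 1.11, 1.02 and 1.04. The protein of Tgfbi, periostin and reelin are known stabilin ligands in plasma. The rows of periostin (Postn) and reelin (Reln) averaged 3.68 and 3.82 with AS1 plasma and 3.64 and 3.90 with AS2 plasma, near the low end of the table (limma adjusted p = 0.675 and 0.205). Thbs1, thrombospondin-1, read 12.16, 11.89 and 12.46 with AS1 plasma and 9.64 to 10.41 (median 10.11) with AS2 plasma. Those AS2 values lay below all 12 other arrays, and the difference was 4.26-fold (limma adjusted p = 1.39e-08). The collagenase Mmp8, fibronectin (Fn1), the inhibitor Timp3 and Sparc fell, with differences of -1.63, -0.88, -0.92 and -0.69. For the proteoglycan versican (Vcan) the call was lost without AS1 replicate 1, where its difference of 0.58 became 0.376 (limma adjusted p = 0.132).

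In the clotting and plasminogen list, 9 of 16 genes rose and 3 fell (median 0.23). Beside urokinase the rises took in S100a10 (1.45) and Anxa2 (0.94), whose products form a plasminogen-binding complex at the cell surface. Plaur, the urokinase receptor, fell (-0.58). The clotting factor genes F7 and F10 rose by 1.31 and 0.59, the latter with limma adjusted p = 0.0504 when AS1 replicate 2 was left out. Procr, the receptor of activated protein C, rose by 0.87. F5, clotting factor V, went the opposite way, with 8.69, 8.54 and 8.57 against 5.60 to 6.09 (median 5.82). It was 6.87-fold lower (limma adjusted p = 4.44e-10), with means of 5.88 for WT and 8.92 for ApoE plasma. F13a1, the transglutaminase that crosslinks fibrin, fell as well (-1.60).

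Leukocyte integrins and adhesion molecules divided almost evenly, with 8 of 20 higher, 9 lower and a median of -0.08. Itgax, the CD11c integrin chain, read 5.05, 5.66 and 5.11 with AS1 plasma against 7.63 to 8.10 (median 7.91). It rose 6.15-fold to a level above every other array (limma adjusted p = 2.79e-09). Its partner chain Itgb2 rose by 0.49, and Itgb7, Itga5, Itgav and the ligand Icam1 by 1.51, 0.86, 0.63 and 0.61. Itgal, the CD11a chain that also pairs with Itgb2, read 8.60, 8.67 and 7.84 against 5.52 to 6.17 (median 5.83). It was 5.74-fold lower and below every other array (limma adjusted p = 1.7e-08). Of the other chains that pair with Itgb2, Itgad fell (-2.12) and Itgam, the CD11b chain, differed by 0.05 (limma adjusted p = 0.841). Pecam1 (CD31) read 9.23, 9.37 and 8.93 against 6.10 to 6.57 (median 6.33). Vcam1, a ligand of the integrin alpha-4 chain, read 11.59, 11.43 and 11.55 against 9.09 to 9.32 (median 9.16). Both genes had their highest values with AS1 plasma and their lowest with AS2 plasma among all 18 arrays, at 7.08-fold and 5.03-fold (limma adjusted p = 2.73e-10 and 9.79e-11).

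**Figure D3:**
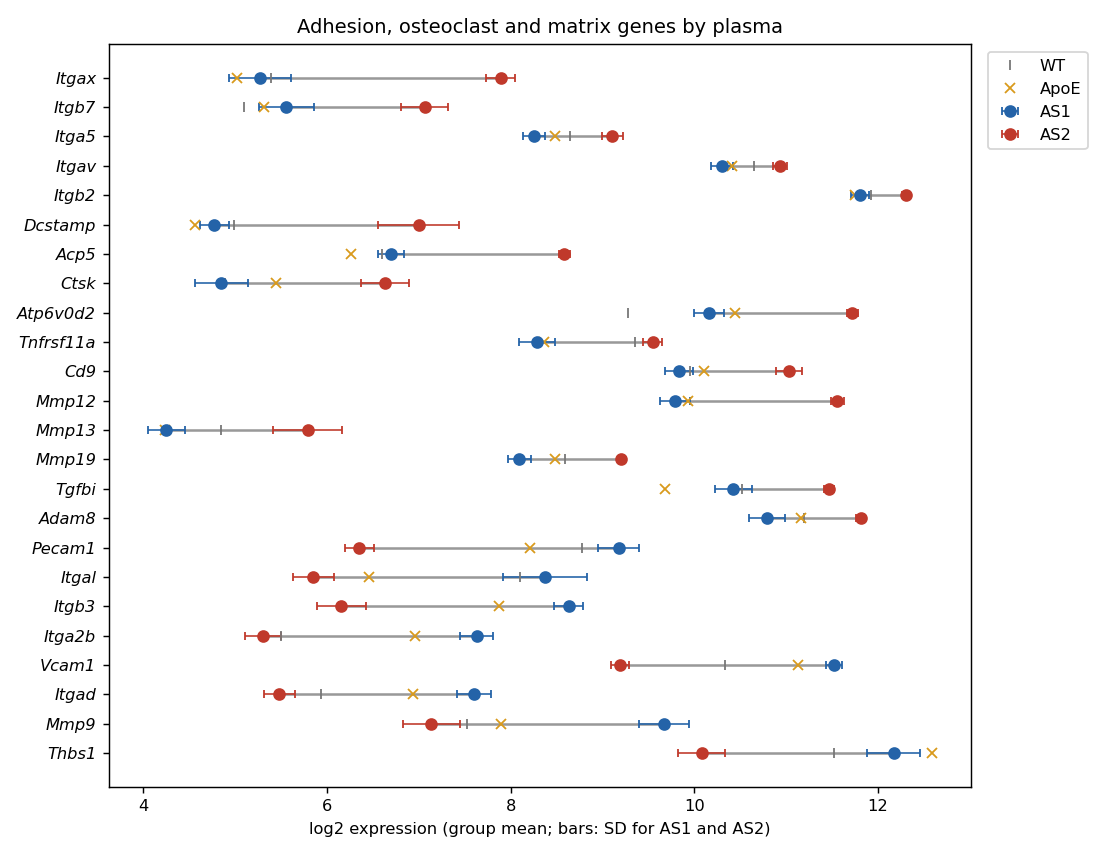
Group means (horizontal axis, log2 expression) of 24 adhesion, osteoclast and matrix genes (vertical axis), with points for AS1 and AS2, bars for their SD, and ticks and crosses for the WT and ApoE means. Itgax is higher with AS2 plasma (7.89 against 5.27) and Vcam1 lower (9.19 against 11.52).

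Genes of the cell cycle rose together. Of 27 measured DNA replication genes 26 rose (96.3%, median 0.74), and of 33 mitosis and cytokinesis genes 28 rose (84.8%, median 0.66). The lowest difference of any member was 0.14 in the first list and 0.11 in the second. Mcm3, a subunit of the replicative helicase, read 6.86, 6.61 and 6.97 with AS1 plasma against 8.03 to 8.30 (median 8.17). It lay above every other array and was 2.54-fold higher (limma adjusted p = 8.33e-08). Its partners Mcm5 and Mcm6 rose by 1.14 and 0.92, the chromatin assembly factor Chaf1b by 1.22, the primase Prim1 by 1.18, the polymerase Pole by 1.11, the reductase subunit Rrm1 by 0.81 and the sliding clamp Pcna by 0.59. Tk1, thymidine kinase, was the exception at 0.14 (limma adjusted p = 0.542). Among mitotic genes, the checkpoint kinase Bub1 read 7.03, 7.29 and 6.85 against 7.99 to 8.32 (median 8.11), without overlap. Survivin (Birc5), the condensin subunit Ncapg, the midzone protein Prc1, the kinases Cdk1 and Aurka and topoisomerase Top2a rose by 1.05, 1.04, 1.03, 0.99, 0.96 and 0.63. Mki67, the common proliferation marker, averaged 10.55 ± 0.04 (SD, n = 3) against 10.66 ± 0.05 (SD, n = 6), and did not pass (limma adjusted p = 0.381). The kinase Plk1 differed by 0.19 (limma adjusted p = 0.271).

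Across the 4 plasmas the AS2 arrays were the highest for both lists. Array means of the mitosis list were 7.33 to 7.48 with AS1 and 7.99 to 8.18 with AS2 plasma, against 5.42 to 5.59 with WT and 7.001 to 7.34 with ApoE plasma. For the replication list the ranges were 6.63 to 6.74 and 7.28 to 7.54, against 6.12 to 6.31 and 6.63 to 6.75. The AS1 arrays thus lay within the ApoE range for replication and mostly above it for mitosis.

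Promoters of 4 of these genes are shown because both lists moved together and replication and mitosis genes are classically read through different elements, the E2F site and the CHR element. They were chosen among called members whose promoter held their list's element as spelled below, so they need not be typical of the list. Sequences are the 250 bases before the first RefSeq start of each gene on GRCm38.p6, in the gene's direction. Capitals mark, on either strand and with overlapping matches run together, TTTGGCGC or TTTCGCGC (E2F) in Mcm5, chr8:75109259-75109508 (+), and Mcm6, chr1:128359706-128359955 (-). They mark TTTGAA or TTCGAA (CHR) in Ect2, a cytokinesis exchange factor, chr3:27153879-27154128 (-), and Kif2c, a mitotic kinesin, chr4:117178773-117179022 (-).
Mcm5: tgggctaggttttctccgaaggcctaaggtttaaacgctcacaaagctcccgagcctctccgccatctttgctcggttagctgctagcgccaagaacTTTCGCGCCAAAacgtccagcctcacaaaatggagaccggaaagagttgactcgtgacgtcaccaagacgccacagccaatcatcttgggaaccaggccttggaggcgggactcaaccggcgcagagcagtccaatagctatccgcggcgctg
Mcm6: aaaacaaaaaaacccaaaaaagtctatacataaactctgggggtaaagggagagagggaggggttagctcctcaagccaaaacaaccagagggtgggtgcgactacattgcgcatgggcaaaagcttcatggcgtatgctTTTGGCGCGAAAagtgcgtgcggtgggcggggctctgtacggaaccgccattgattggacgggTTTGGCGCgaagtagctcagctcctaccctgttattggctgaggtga
Ect2: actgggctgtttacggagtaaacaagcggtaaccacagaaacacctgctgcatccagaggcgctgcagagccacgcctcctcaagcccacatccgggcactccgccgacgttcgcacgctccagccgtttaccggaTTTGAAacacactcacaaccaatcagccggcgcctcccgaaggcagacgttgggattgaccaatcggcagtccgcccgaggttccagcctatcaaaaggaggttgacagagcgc
Kif2c: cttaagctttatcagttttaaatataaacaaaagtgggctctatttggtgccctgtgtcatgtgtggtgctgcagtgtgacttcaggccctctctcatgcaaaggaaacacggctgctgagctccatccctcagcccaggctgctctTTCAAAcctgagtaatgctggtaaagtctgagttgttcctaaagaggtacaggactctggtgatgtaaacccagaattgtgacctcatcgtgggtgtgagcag

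The E2F letters occurred in 5 of the 22 called replication genes with a listed promoter (22.7%) and in 0.673% of all 27025 promoters. The CHR letters occurred in 9 of 24 called mitosis genes (37.5%) against 17.4% of all promoters. Across the lists, the CHR letters also occurred in 5 of the 22 replication genes (22.7%), and the E2F letters in 1 of the 24 mitosis genes (4.17%). CCAAT occurred in 63.6% and 66.7% of these sets against 34.5%. The genes printed rose by 1.14, 0.92, 0.80 and 0.81. A match describes the letters in this window and does not show that a factor binds there.

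Genes of neutrophil granules fell. All 13 measured genes of late granules and S100 proteins were lower with AS2 plasma (median -2.17), and so were 8 of 10 early granule genes (median -1.18). In bulk RNA, fewer cells of a type and less RNA per cell cannot be told apart. Retnlg, a resistin-like protein of neutrophils, read 10.37, 9.93 and 10.09 with AS1 plasma and 5.67 to 7.36 (median 7.20) with AS2 plasma, without overlap. The difference was -3.20 ± 0.37 (SE) log2 units, 9.21-fold lower (limma adjusted p = 4.66e-06). S100a8, which forms calprotectin with S100a9, stood at 11.45, 11.25 and 11.33 against 8.12 to 9.01 (median 8.84), and S100a9 differed by -2.17. The AS1 arrays of both lay above the arrays of every other plasma. The chemokine receptor Cxcr2, the surface protein Cd177, lactoferrin (Ltf), cathelicidin (Camp), Ngp, lipocalin-2 (Lcn2) and the G-CSF receptor Csf3r had differences of -2.74, -2.54, -2.33, -2.25, -2.10, -2.08 and -2.03. Ly6g, the gene of the usual neutrophil surface marker, had -0.44 (limma adjusted p = 0.0368) with overlapping arrays. Its call was lost in 6 of 19 alternatives, and without AS1 replicate 2 the difference was -0.19 (limma adjusted p = 0.334).

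Among early granule genes, proteinase 3 (Prtn3) read 9.87, 9.24 and 9.75 against 7.08 to 7.73 (median 7.35). For this gene AS1 plasma stood alone, with means of 7.34 with WT, 7.35 with ApoE and 7.39 with AS2 plasma against 9.62 with AS1 plasma. Neutrophil elastase (Elane), myeloperoxidase (Mpo) and cathepsin G (Ctsg) had differences of -1.88, -1.85 and -1.54. Array means of the early list were 7.80 to 8.02 with AS1 and 6.72 to 6.94 with AS2 plasma, against 6.65 to 6.81 with WT and 6.70 to 7.22 with ApoE plasma. The late list had AS2 arrays at the bottom, with array means of 6.80 to 7.50 against 9.37 to 9.57 with AS1, 7.70 to 8.11 with WT and 7.65 to 8.74 with ApoE plasma. AS2 replicate 1 stood apart as the lowest AS2 array for 7 late granule genes, and without it 12 of the 13 were called.

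Promoters of S100a9, chr3:90695722-90695971 (-), and Ltf, chr9:111019042-111019291 (+), are shown in the same way because the late list fell as a whole. Capitals mark TTGCNNAA on either strand, a form of the site of C/EBP factors, which drive granulocyte genes. Both genes were chosen among called members whose promoter held these letters.
S100a9: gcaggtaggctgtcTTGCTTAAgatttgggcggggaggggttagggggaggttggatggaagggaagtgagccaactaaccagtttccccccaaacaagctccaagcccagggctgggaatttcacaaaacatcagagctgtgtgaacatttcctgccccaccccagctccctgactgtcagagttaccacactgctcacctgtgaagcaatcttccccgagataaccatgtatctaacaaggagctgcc
Ltf: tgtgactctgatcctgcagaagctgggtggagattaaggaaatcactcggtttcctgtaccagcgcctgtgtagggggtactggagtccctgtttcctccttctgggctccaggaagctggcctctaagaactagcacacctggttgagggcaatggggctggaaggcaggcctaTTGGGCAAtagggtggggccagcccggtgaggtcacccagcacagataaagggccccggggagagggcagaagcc

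Those letters occurred in 7 of 13 late granule genes (53.8%) against 9.55% of all promoters, but in only 1 of 7 called early granule genes (14.3%). GAGGAA on either strand, the PU box read by the factor PU.1, occurred in 61.5% of the late granule genes. It occurred in 71.4% of the called early granule genes and in 23.1% of all promoters. The genes of the granulocyte factors Cebpe and Gfi1, both of the early list, fell, with differences of -0.83 and -0.48. Cebpa, Cebpb and Cebpd fell too (-0.44, -0.43 and -0.60), while Spi1, the gene of PU.1, differed by -0.19 and was not called. Whether any of these factors had a part in the falls was not tested.

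Among markers of other marrow cells, most measured platelet, mast cell and monocyte genes fell. All 6 measured megakaryocyte and platelet genes were lower (median -1.83). Ppbp, a platelet chemokine, read 10.42, 10.25 and 9.98 against 6.85 to 8.16 (median 7.78), a 5.68-fold difference without overlap (limma adjusted p = 4.48e-06). Gp9, Itga2b and Pf4, proteins of the platelet surface and granules, had -2.41, -2.32 and -1.33. Array means of that list were 7.79 to 7.99 with AS1 plasma and 5.997 to 6.30 with AS2 plasma. Of 10 mast cell, basophil and eosinophil genes 7 were lower, led by Hdc, the histamine-forming enzyme (-2.88), Prg2, the eosinophil major basic protein (-2.38), and the mast cell carboxypeptidase Cpa3 (-1.97). Their array means were 5.12 to 5.46 against 4.17 to 4.32, and the defining genes Fcer1a, Ms4a2, Gata2 and Il5ra were under the table's median on every AS1 and AS2 array. Monocyte genes gave 5 of 8 lower and 2 higher, with Chil3, Hp, Ly6c2 and Plac8 at -2.79, -2.53, -2.48 and -1.69. The 2 higher were the receptor Ccr2 (0.43) and Vcan (0.58), whose calls did not hold under every alternative. Ly6c1, under the table's median, differed by -0.07 and was not called. Array means of the monocyte list were 8.04 to 8.09 against 6.46 to 6.99.

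In the B cell list 4 of 5 genes were lower, with Cd79b at -1.80, while Ms4a1, Pax5 and Ebf1 were under the table's median. That count was 2 with the AS1 and AS2 arrays alone and without AS2 replicate 1, 3 or 5, and 1 without AS1 replicate 1 or without low rows. In the T and NK cell list 2 of 8 genes were lower (median -0.01), a called share of 25.0% near the background. They were Cd4 (-1.90) and Nkg7, a granule protein of cytotoxic cells (-0.61), and the rows of the CD3 chains were under the table's median. The 5 erythroid rows were all under it, with differences from -0.13 to 0.12. Of 8 dendritic and 8 endothelial markers 4 each were lower, among them Siglech (-0.87) and Pecam1, and of 8 stromal markers 2 were lower. The part of these other cells' markers in the differences reported here was not tested.

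**Figure D4:**
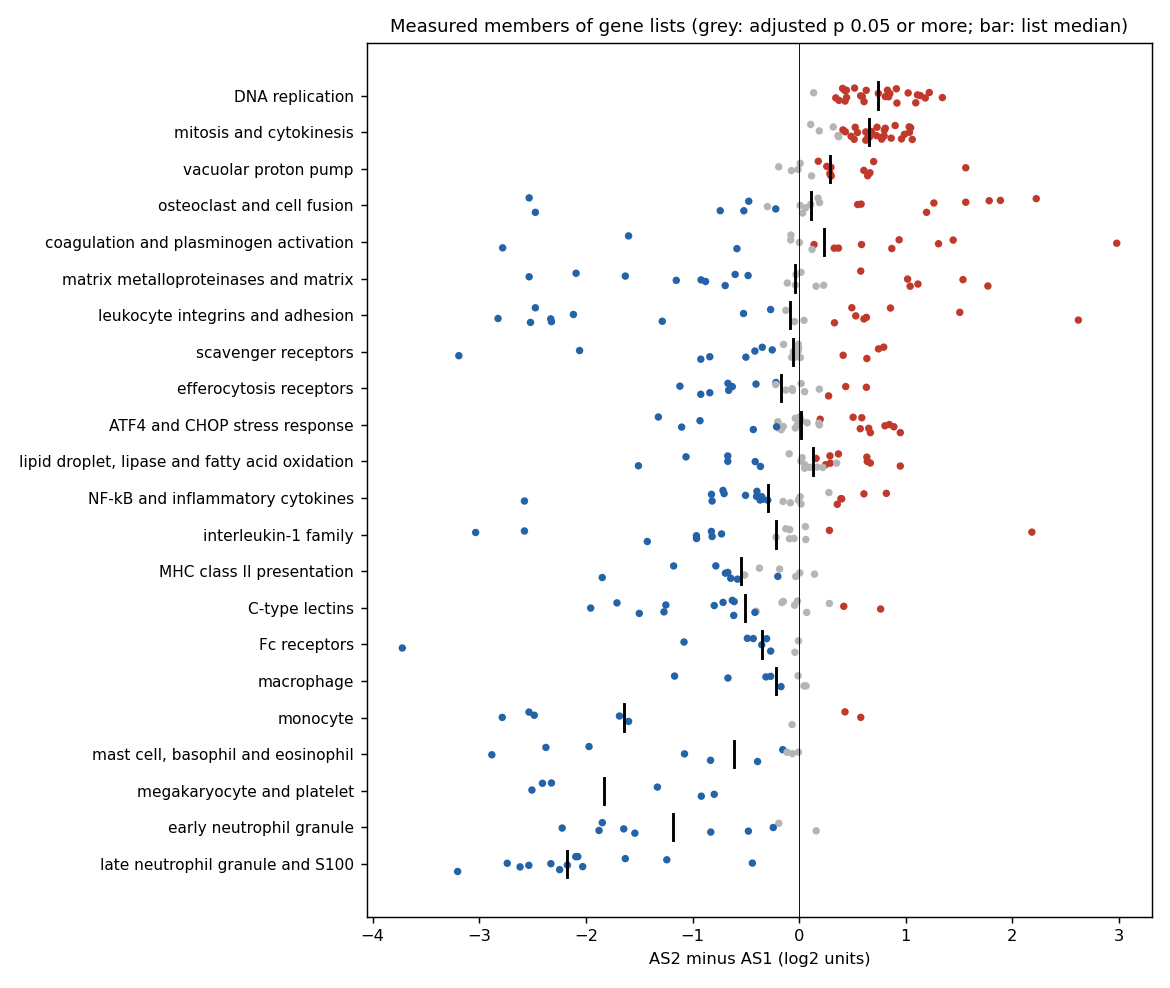
AS2 minus AS1 difference (horizontal axis, log2 units) of every measured member of 22 gene lists (vertical axis), each point 1 gene, coloured where called and grey otherwise, with a bar at the list median. DNA replication (median 0.74) and mitosis (0.66) lie to the right, late neutrophil granule genes (-2.17) to the left, and integrins, matrix and osteoclast genes spread to both sides.

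Of 8 measured general macrophage markers 5 were lower (median -0.22), and array means were 10.98 to 11.15 with AS1 and 10.69 to 10.82 with AS2 plasma. Aif1 (IBA1), a calcium-binding protein of macrophages, had the largest fall of the list (-1.17, limma adjusted p = 5.17e-06). Adgre1 (F4/80) was at 12.51, 12.79 and 12.33 against 12.16 to 12.33 (median 12.21), with overlapping arrays. Its difference of -0.31 (limma adjusted p = 0.00327) became -0.19 without AS1 replicate 2 (limma adjusted p = 0.0283). Csf1r, the M-CSF receptor, was lower (-0.17, limma adjusted p = 0.029), and lost its call without AS1 replicate 1 or 2 or AS2 replicate 3 or 4 (limma adjusted p from 0.0574 to 0.179).

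Transcription factors of macrophage identity and of the Id and Bhlhe families were lower in 9 of 17 cases and higher in 1 (median -0.24). Spic, the factor of iron-recycling macrophages, read 7.62, 7.62 and 7.56 against 5.11 to 5.86 (median 5.79). It was 3.84-fold lower and below all other arrays (limma adjusted p = 2.81e-06). Maf and Irf8 had differences of -0.89 and -0.57. In the list of iron and haem handling 6 of 15 fell and 1 rose. The falls included the iron exporter Slc40a1 (-1.90), the haemoglobin receptor Cd163 (-2.06), the transferrin receptor Tfrc (-0.71) and haem oxygenase Hmox1 (-0.35).

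Scavenger receptors, the class to which the stabilins belong, changed in both directions, 4 of 20 higher and 8 lower (median -0.06). Stab1 read 11.97, 11.93 and 12.0 with AS1 plasma and 10.88 to 11.11 (median 11.08) with AS2 plasma. All AS2 arrays lay below the 12 other arrays, a 1.9-fold difference (limma adjusted p = 3.7e-09), and the WT and ApoE means were 12.02 and 11.83. Stab2 stood at 5.81, 5.59 and 6.15 against 4.70 to 5.27 (median 5.04), 1.79-fold lower without overlap (limma adjusted p = 0.000747). Both stabilin genes of the macrophages were thus lower with plasma of Stab2-deficient than of Stab1-deficient donors. Marco, a class A receptor for bacteria and particles, read 9.04, 9.62 and 7.44 with AS1 plasma and 5.33 to 5.74 (median 5.49) with AS2 plasma. AS1 replicate 3 lay well below its partners, and without it the difference was -3.82 instead of -3.19. Cd163 was at 8.04, 7.98 and 8.09 against 5.84 to 6.27 (median 5.94), and the mannose receptor Mrc1 fell (-0.50). The receptors that rose were Msr1 (0.79), Colec12 (0.74), the fatty acid and lipoprotein receptor Cd36 (0.64) and Lrp1 (0.41).

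Fc receptors were lower in 7 of 9 cases (median -0.35). Fcrls, an Fc receptor-like scavenger protein, had the largest fall of all named rows. It read 10.49, 11.10 and 9.58 with AS1 plasma and 6.41 to 6.91 (median 6.68) with AS2 plasma. That is 13.2-fold lower (limma adjusted p = 4.2e-08), with a mean of 10.10 for WT and 7.16 for ApoE plasma. Fcgrt, the neonatal Fc receptor, fell too (-1.08). Fcgr4 was lower (-0.49, limma adjusted p = 0.0293), a call lost when any 1 AS1 array or AS2 replicate 5 was left out. The list's count was 4 without AS1 replicate 1 or 3.

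C-type lectins were lower in 11 of 20 cases and higher in 2 (median -0.51). Clec4n (dectin-2) read 7.70, 7.92 and 7.88 against 5.79 to 6.02 (median 5.86). It fell below every other array, 3.88-fold (limma adjusted p = 7.4e-11). Clec4b2 fell (-1.71), while Clec7a (dectin-1) rose by 0.76. Of 16 Toll-like receptor genes and partners 7 fell and 3 rose. The flagellin receptor Tlr5 read 8.76, 8.47 and 8.93 against 5.80 to 6.31 (median 5.96), without overlap. Tlr9, a DNA sensor, fell (-0.99) and Tlr13, a sensor of bacterial RNA, rose by 0.62. CD300, CD200R and TREM receptors gave 9 of 20 lower and 2 higher, with Trem3 and Cd300e at -1.35 and -1.19. Complement genes gave 6 lower and 2 higher of 17, with C1qb and the receptor Vsig4 at -0.58 and -1.45.

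Receptors and bridging proteins for dead cells were lower in 8 of 18 cases and higher in 3 (median -0.17). The receptor kinase Axl read 11.34, 11.12 and 11.34 against 10.07 to 10.20 (median 10.15), below all other arrays. Mertk, Timd4 and the bridging protein Gas6 had -0.67, -0.66 and -0.40. Class II presentation genes were lower in 8 of 14 cases (median -0.54). The class II chain H2-Eb1 read 10.83, 10.79 and 10.66 against 9.28 to 9.71 (median 9.63), without overlap, and H2-Aa fell too (-0.78). The costimulator Cd86 stood at 8.81, 8.98 and 8.78 against 6.83 to 7.33 (median 6.98), 3.6-fold lower (limma adjusted p = 6.85e-10), and Cd80 fell (-0.67). Ciita, the regulator of class II genes, differed by -0.51 (limma adjusted p = 0.0981). It passed the test with the AS1 and AS2 arrays alone (limma adjusted p = 0.00187) and without ApoE replicates 2 and 5 (limma adjusted p = 0.00132), a setting added after the data were seen.

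In the interleukin-1 family Il1b fell and the antagonist Il1rn rose, with 8 of 17 lower, 2 higher and a median of -0.22. Il1b read 7.32, 7.41 and 6.93 with AS1 plasma and 4.10 to 4.83 (median 4.74) with AS2 plasma. It was 5.97-fold lower and below every other array (limma adjusted p = 3.3e-08). Il1rn, the receptor antagonist that blocks interleukin-1, stood at 7.51, 7.39 and 7.47 against 9.45 to 9.87 (median 9.63). It was 4.54-fold higher and above every other array (limma adjusted p = 2.01e-09). With WT and ApoE plasma Il1b averaged 6.75 and 5.15, and Il1rn 7.20 and 7.58. Il1f9 (interleukin-36 gamma), Il18, its binding protein Il18bp, the inflammasome sensor Nlrp3 and Il1a had differences of -3.03, -0.96, -1.42, -0.82 and -0.82. The decoy receptor Il1r2 fell as well (-0.73), while the cytokine genes Il33 and Il36a differed by -0.12 and -0.09 (limma adjusted p = 0.117 and 0.381).

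The NF-kB list, subunits and inhibitors with cytokine genes they induce, had 12 of 23 lower and 5 higher (median -0.29). The inhibitor family member Nfkbiz fell (-0.82), and the adaptor Traf1 rose by 0.82. Tnf was higher by 0.40 (limma adjusted p = 0.0233), and lost its call without AS1 replicate 1 or 2 (adjusted p = 0.106 and 0.0937). Il10 was higher by 0.36 (limma adjusted p = 0.0128), and by 0.224 without AS1 replicate 3 (limma adjusted p = 0.142). Among 23 chemokine ligand genes 4 rose and 5 fell, with Ccl5 at -1.03. Among 16 receptors 1 rose and 6 fell, with Ccr3 at -1.40. Interferon-stimulated genes gave 4 higher and 3 lower of 26, a called share of 26.9% that is near the 22.1% of all rows. Of 12 interferon-inducible GTPases 4 rose and 2 fell, with Gbp9 at 1.37 and Gbp7 at -0.93, and 3 were called without AS1 replicate 1.

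Immediate early genes, which growth and stress signals switch on, were higher in 7 of 20 cases and lower in 3 (median 0.24). The transcription factor Egr2 read 5.58, 5.62 and 5.93 against 6.92 to 7.61 (median 7.30). It was 3-fold higher and above every other array (limma adjusted p = 1.21e-07). The phosphatase Dusp1 and Myc rose by 1.18 and 0.78, and Ier3 fell (-1.37). Egr1 differed by 0.34 (limma adjusted p = 0.336, and 0.037 with the AS1 and AS2 arrays alone). Of the 15 largest falls not yet described, the transcription factor Stat4, the formyl peptide receptor Fpr2, Ly6a2 and the protease inhibitor Stfa2l1 had -2.66, -2.59, -2.87 and -2.66. Stfa2l1, Ly6a2, Ly6c2, Chil3 and Clec4b2 have near relatives in the genome, and the files do not show whether probes are shared, so these values are uncertain.

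Lipid genes did not move as 1 group. Lpl, the lipase that frees fatty acids from lipoproteins, read 12.27, 12.25 and 12.16 with AS1 plasma and 13.11 to 13.21 (median 13.19) with AS2 plasma. It was 1.93-fold higher and above every other array (limma adjusted p = 1.54e-10). In its list of lipid droplets, lipases and fatty acid oxidation 9 of 24 rose and 6 fell (median 0.13). Dgat1, which makes triglyceride, read 7.95, 7.76 and 8.08 against 6.31 to 6.61 (median 6.37), and the fatty acid carrier Fabp4 fell (-1.06). The desaturases Scd2, Scd1 and Fads2 rose by 1.16, 1.06 and 0.77, within 5 higher of 16 fatty acid synthesis genes. Cholesterol synthesis gave 5 higher of 20, a called share of 25.0% near the background, among them Msmo1 (0.90) and Hmgcs1 (0.55). Among targets of the sterol receptor LXR, 3 of 13 rose and 4 fell (median -0.03). The cholesterol exporter Abcg1 read 10.78, 10.78 and 10.71 against 11.35 to 11.54 (median 11.38), a rise of 0.65. The exporter Abca1 was lower instead (-0.24, limma adjusted p = 0.00888, and 0.0505 without AS1 replicate 2). Mylip, which degrades lipoprotein receptors, and Apoe fell (-0.63 and -0.41).

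Amino acid and stress genes divided in the ATF4 and CHOP list, with 10 of 28 higher, 5 lower and a median of 0.02. Asns, asparagine synthetase, read 7.47, 7.30 and 8.04 against 8.38 to 8.60 (median 8.43), 1.8-fold higher without overlap (limma adjusted p = 0.00419). The synthesis genes Psat1 and Aldh18a1 rose by 0.95 and 0.81. Slc7a1, an amino acid transporter, and Mthfd2, of one-carbon metabolism, were higher by 0.89 and 0.65, calls lost without AS1 replicate 1 or 2 (limma adjusted p from 0.0503 to 0.0596). Sesn2, the cystine transporter Slc7a11 and Ddit4 fell (-1.32, -1.10 and -0.93). Atf4 and Ddit3 (CHOP) themselves differed by 0.08 and -0.20 (limma adjusted p = 0.716 and 0.344). Array means of the list were 6.47 to 6.75 with AS1 and 6.64 to 6.69 with AS2 plasma. Both ranges lay below the 7.14 to 7.65 of ApoE plasma and above the 6.25 to 6.29 of WT plasma. Chaperones of the endoplasmic reticulum gave 7 higher and 3 lower of 21. Targets of the oxidative stress factor NRF2 gave 4 higher and 8 lower of 17 (median -0.30). Slc7a11, which is in this list too, Osgin1 and Gsr fell (-1.10, -0.68 and -0.57), while Prdx1 rose by 0.70. Nqo1 was higher by 0.48 (limma adjusted p = 0.0207), a call lost without AS1 replicate 1 or 3.

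Among glucose genes 2 transporters moved in opposite directions. Slc2a3 (GLUT3) read 9.09, 8.57 and 8.88 with AS1 plasma and 6.23 to 6.84 (median 6.53) with AS2 plasma, 4.83-fold lower (limma adjusted p = 1.27e-07). Slc2a1 (GLUT1) stood at 8.10, 8.02 and 8.21 against 8.88 to 9.31 (median 9.25), 2.11-fold higher (limma adjusted p = 9.85e-07). Neither gene's groups overlapped, and in both it was the AS1 arrays that lay beyond all 15 others. Pfkp and Ldha, enzymes near the start and the end of glycolysis, rose by 1.02 and 0.94, and the angiogenic factor Vegfa fell (-0.61), within 6 higher and 6 lower of 24. The vacuolar proton pump, which acidifies lysosomes and the osteoclast's resorption pit, had 11 of 16 subunits higher (median 0.29, lowest difference -0.19). Beside Atp6v0d2 these included Atp6v1c1 (0.70) and Atp6v1a (0.66). Array means of the pump were 9.91 to 9.96 with AS1 and 10.26 to 10.36 with AS2 plasma. With WT plasma they were 9.96 to 9.99, next to AS1, and with ApoE plasma 10.22 to 10.40. Lysosomal hydrolases and membrane proteins gave 7 higher and 3 lower of 28. Subunits of oxidative phosphorylation gave 10 higher of 27 (37.0%, median 0.28).

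Small nucleolar RNAs guide the chemical modification of ribosomal and splicing RNAs. RNA of every array had been isolated with a kit for microRNA, and how far the rows of small RNA genes depend on that step was not tested. They had the largest median difference of 7 families picked by name pattern after values had been seen, as were the RNA genes named in the rest of the text. Of 108 rows of small nucleolar and Cajal body RNAs 70 were higher and 2 lower (median 0.77). Snord12 read 4.39, 5.06 and 3.84 with AS1 plasma and 7.95 to 8.63 (median 8.002) with AS2 plasma, 13.6-fold higher (limma adjusted p = 6.69e-06). The groups were far apart, with WT and ApoE means of 6.77 and 6.26 between them, and Snord1b and Snora16a were higher by 3.66 and 2.72. Array means of the family were 6.04 to 6.26 with AS1 plasma, below all other arrays, and 7.01 to 7.19 with AS2 plasma. With WT and ApoE plasma they were 6.54 to 7.09 and 6.54 to 6.87. Host genes of these RNAs gave 9 higher of 19 (median 0.15). Mitochondrial ribosomal proteins gave 33 higher and 2 lower of 76 (median 0.27), and proteasome genes 22 higher and 1 lower of 48 (median 0.21). Cytosolic ribosomal proteins had a called share of 21.9%, at the background, and olfactory receptor genes one of 1.96%.

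Rows of microRNA genes, which measure the gene and not the mature microRNA, gave 13 higher and 51 lower of 534 (median -0.0062). This called share of 12.0% is below the 22.1% of all rows. Mature sequences of 3 genes are shown because Mir221 and Mir222, neighbours on chromosome X, both rose and share a seed (bases 2 to 8, in capitals), and because Mir511 lies within the gene of the mannose receptor Mrc1, which fell. They are from RefSeq on GRCm38.p6, for miR-221-3p chrX:19146307-19146329 (-), for miR-222-3p chrX:19146901-19146923 (-) and for miR-511-3p chr2:14261051-14261072 (+).
miR-221-3p: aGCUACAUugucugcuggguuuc
miR-222-3p: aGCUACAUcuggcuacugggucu
miR-511-3p: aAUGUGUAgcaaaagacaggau

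Mir221 read 4.11, 4.07 and 4.12 against 4.79 to 5.27 (median 5.05), above every other array, and Mir222 read 3.78, 3.73 and 3.77 against 4.11 to 4.61 (median 4.23). These are rises of 0.94 and 0.53 (limma adjusted p = 2.46e-06 and 0.000332). Mir511 stood at 6.25, 6.78 and 6.09 against 5.01 to 5.82 (median 5.51), a difference of -0.89, and Mir15a had one of -0.82 (limma adjusted p = 0.004 and 0.00574). The AS1 and AS2 arrays overlapped for none of these 4 genes.

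**Figure D5:**
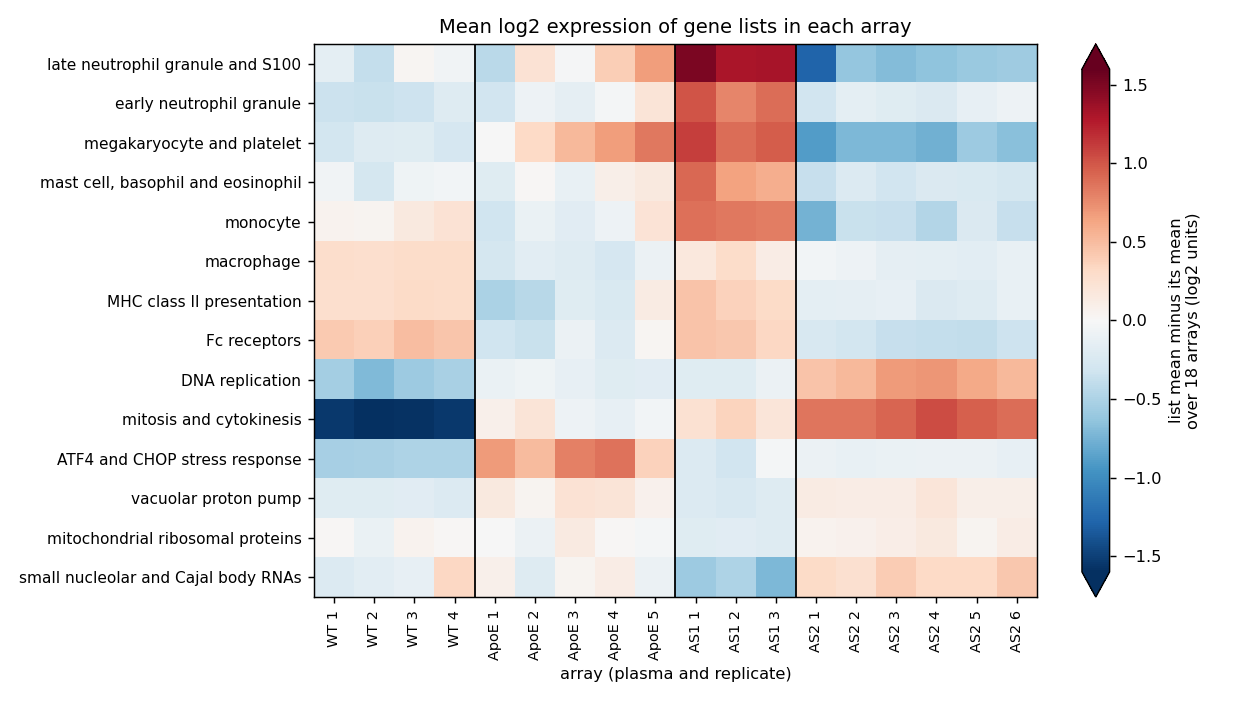
Mean log2 expression of 14 gene lists and families (vertical axis) on each of the 18 arrays (horizontal axis), as the difference from the list's mean over the arrays (colour, log2 units, with values past the ends of the scale in the end colours). AS1 arrays are above and AS2 arrays below the mean for late neutrophil genes (9.37 to 9.57 against 6.80 to 7.50), and the reverse holds for small nucleolar RNAs (6.04 to 6.26 against 7.01 to 7.19).

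Set beside the other plasmas, some called rows had the AS2 arrays and others the AS1 arrays beyond all the rest. Of the 2847 rows higher with AS2 plasma, 651 had the AS2 arrays above all 12 other arrays, 548 had the AS1 arrays below all 15 other arrays, and 60 had both. Of the 2620 lower rows, 456 had the AS2 arrays below all others, 554 had the AS1 arrays above all others, and 82 had both. Acp5 is a gene of the first kind, with means of 6.60 with WT, 6.26 with ApoE, 6.70 with AS1 and 8.58 with AS2 plasma. Mpo is one in which AS1 departed, at 7.65, 8.47, 10.26 and 8.41 in the same order. Pecam1, Vcam1 and Spic departed at both ends. These counts were taken among rows already called between AS2 and AS1, a selection that favours such extremes. They also differ in strictness, since AS2 had 6 arrays and AS1 had 3. The same counts over all rows were not made, so they do not show which group departed more. Comparisons with ApoE or WT plasma share arrays with this one, so these values are placed side by side and are no further evidence.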

How the data were processed

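RNA of mouse bone marrow-derived macrophages, isolated with a microRNA isolation kit per the labels, had been measured on Affymetrix arrays with biotin-labelled cRNA. The deposited values are log2 expression values made with RMA per the submitters' processing notes, whereas the RMA version, the probe set definition and any batch were not given in the sources used here. Of 25428 rows, 24705 with 1 gene symbol were kept and 723 without one were left out. From these values, 1 linear model of the 4 plasma group means over all 18 arrays was fitted with limma 3.58.1 in R 4.3.3, with 14 residual degrees of freedom. AS2 minus AS1 was tested two-sided with empirical Bayes variances, and p-values were Benjamini-Hochberg adjusted over all rows at a threshold of 0.05. Fold changes are 2 to the power of the difference. The number of arrays limits the precision.

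The groups, the 51 gene lists (801 genes, 757 with a row) and the rule for named genes were set with earlier results of these data known. That rule took the 15 largest called differences without overlap in each direction (passing over predicted genes, clone names, small RNA genes and pseudogenes), the members of leading lists and of marker lists, the 4 called members with the smallest p of each other list, and Stab1, Stab2, Apoe, Tgfbi, Postn, Reln, Csf1r, Adgre1, Cd68, Mki67, Egr1, Asns, Abca1, Abcg1 and Il1b whatever their values. The text prints part of them. Snord12, Snord1b, Snora16a, Mir221, Mir222, Mir511, Mir15a and Mrps6 fall outside it. The 19 alternatives comprised other normalizations, filters and variance models, the AS1 and AS2 arrays alone, the replicate number as a block, each AS1 and each AS2 array left out and, added after seeing the data, ApoE replicates 2 and 5 left out. Simulated data had 24705 rows with independent noise, and 50 rows were changed by each of the following amounts. Of these, 41 of 50 changes of 0.5, 50 of 50 of 1, 50 of 50 of 2 and 49 of 50 of -1 log2 units were called, with 16 calls on unchanged rows. Far fewer rows were changed than the 22.1% called in the real data, so these rates need not hold there. The labels do not say whether replicate numbers pair the samples, and the main model left them unpaired. Deviations of same-numbered AS1 and AS2 arrays from their group means correlated at 0.065, -0.016 and -0.092. So few values, without those of differently numbered arrays, cannot decide the question. Promoter and microRNA sequences are from RefSeq on GRCm38.p6, with motifs searched on both strands. The letters TGANTCA and TCATGTG, and the promoters of the osteoclast genes that rose, were searched as well and are not described.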

Additional observations from a re-analysis of the deposited data

Results flagged for a closer look

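Of the 6 AS2 arrays, 1 stood apart from the other 5 in 14 of the 234 named genes. Chance gives such a gap in about 1 in 20 independent groups. The named genes share the same 6 arrays and are not independent, so that rate does not judge this share. Of these 14 cases, 11 were in AS2 replicate 1. AS1, with 3 arrays, was not examined in this way. AS2 replicate 1 was the lowest for 7 late neutrophil granule genes. It read 5.67 for Retnlg (others 6.85 to 7.36), 5.58 for Cxcr2 (6.48 to 6.68) and 5.77 for Cd177 (6.23 to 6.39). It read 8.38 for Ltf (9.01 to 9.33), 4.09 for Camp (5.0 to 5.18), 9.5 for Ngp (10.14 to 10.36) and 9.92 for Lcn2 (10.63 to 10.77). The same array was lowest for the monocyte gene Ly6c2 at 6.29 (7.45 to 7.98), for Il1b at 4.1 (4.65 to 4.83) and for Car5b at 6.81 (7.13 to 7.28). It was highest for Nkg7 at 4.98 (4.67 to 4.76). For all the genes in which it was lowest but Car5b, this array lay on the side away from AS1.

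Other arrays stood apart in 1 gene each. AS2 replicate 2 was highest for Cd86 at 7.33 (others 6.83 to 6.99), AS2 replicate 4 for Il10 at 5.15 (4.87 to 4.97) and AS2 replicate 3 for Asns at 8.6 (8.38 to 8.45).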

How the results depend on the processing

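Under the 19 alternatives no named gene changed direction where it was called in the main fit or in the alternative. Sign changes of uncalled genes and of list medians were not examined. The 5467 rows called were 6240 with array weights, 6061 with the AS1 and AS2 arrays alone, 5653 with all rows, 5964 without ApoE replicates 2 and 5 (added after seeing the data), and 4329 to 5501 with 1 AS1 or AS2 array left out, fewest without AS1 replicate 1. With the replicate number as a block 4874 were called, 2535 higher and 2339 lower, and the calls of Ccr2, Il10, Ly6g, Nqo1 and Siglec15 were lost (limma adjusted p = 0.0815 for Ccr2 and 0.0849 for Il10). Rows called with at least a 2-fold difference numbered 522, and 498 to 553 with 1 array left out. Members called in the B cell list numbered 4, but 2 with the AS1 and AS2 arrays alone, 1 without low rows and 1 to 4 with 1 array left out. The Fc receptor count of 7 was 4 to 7, and that of the GBP and IRG GTPases, 6, was 3 to 7, with 1 array left out. Of 214 named genes called, 13 lost the call under at least 1 alternative, and 4 of 20 uncalled ones, Cd63, Ciita, Egr1 and Il33, gained it. Other scalings moved the median of all rows by 7.61e-05 and -0.000326. The cause of these changes was not tested, beyond the smaller number of arrays or rows. AS1 had 3 arrays, and low rows can hide differences.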
